A study of Caenorhabditis elegans with 32 samples.

Results

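Cytochrome P450 enzymes are haem proteins that add oxygen to lipids, hormones and foreign compounds. The members described here are the protein-coding genes of the deposited count table whose name starts with cyp-, together with daf-9, which encodes a cytochrome P450 under another name. The rule found 76 genes among the 46726 listed, of which 20447 were protein-coding, and used no measured value.

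In Caenorhabditis elegans the family is split into clans by sequence. The CYP2, CYP3 and CYP4 types hold most of the genes, many of which respond to foreign compounds in the intestine, and single genes represent the CYP7 and mitochondrial types. Most microsomal members take electrons from the P450 reductase EMB-8 and cytochrome b5. A few have a known role in physiology: DAF-9 makes the dafachronic acids that bind the nuclear receptor DAF-12, CYP-31A2 and CYP-31A3 are needed for the lipid layer of the eggshell, and CYP-36A1 and CYP-13A12 act downstream of the EGL-9 and HIF-1 oxygen response in worm behaviour. P450 enzymes consume O2 in every reaction, and the study kept worms at 21% or 7% O2.

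RNA was measured in hermaphrodites of strain KL123, which carry npr-1(ad609) and the array iaIs25, in which the gcy-37 promoter drives GFP together with an unc-119(+) marker. Cells with GFP, mainly the O2-sensing neurons URX, AQR and PQR with a weaker signal in AVM and ASI, were sorted from dissociated worms. An aliquot taken from each dissociated sample before sorting served as the whole-worm sample, and the labels do not say which aliquot belongs to which sorted library. Worms were grown at 21% or 7% O2 and taken on day 1 or day 7 of adulthood, which gives 8 groups of 4 biological replicates and 32 libraries, each from pooled animals. All groups share the npr-1 allele, the transgene and feeding with mex-3 RNAi bacteria from the L3 stage. Day 7 animals were moved to OP50 on day 4, so age and the length of RNAi feeding cannot be told apart. In these bulk samples fewer cells of a type and less RNA per cell cannot be told apart either.

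The libraries held 5365596 to 30666288 counts, and the 76 P450 genes took 0.01305% to 0.06859% of them. The gene F31C3.14 alone took 5.326% to 53.79%. Defining genes of the O2-sensing neurons (gcy-32 to gcy-37, flp-8 and glb-5) summed to a median of 7519 TMM-scaled CPM (counts per 1000000 of the library total after TMM scaling) in day 1 sorted cells at 21% O2 and 6311 at 7%, against 9.033 to 18.19 in the 4 whole-worm groups. On day 7 the same sum was 718.8 and 449.5 in sorted cells. AVM is a touch neuron, and 6 touch neuron markers summed to medians of 8568 and 8976 CPM in day 1 sorted cells at 21% and 7% O2 (up to 27900 in 1 library), 834.5 and 386.7 CPM on day 7, and 24.86 to 67.68 CPM in whole worms. RNA of the O2-sensing neurons and of touch neurons cannot be told apart in the sorted libraries. The library of replicate 1 of day 1 sorted cells at 7% O2 stood apart, with an O2-sensing sum of 2763 CPM against 6195 to 7857 in the other 3 libraries and a body wall muscle sum of 8233 CPM in it. Values of cyp-36A1, cyp-33C8, cyp-34A1, cyp-25A4, cyp-31A2, cyp-31A3, cyp-35B1 and cyp-44A1 in day 1 neurons at 7% O2, and the order of levels, are also given without it. Marker sums departed in other sorted libraries as well. At 21% O2, day 7 replicate 4 had a germline sum of 2949 CPM (384.5 to 568.3 in its group) and an O2-sensing sum of 337.6 CPM (687.8 to 869). Day 1 replicate 2 at 21% O2 had a body wall muscle sum of 4993 CPM (1528 to 2202 in its group).

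All 76 genes matched the annotation of the WBcel235 build. Chromosome V held 42 of them, II 12, X 8, IV 7, III 6 and I 1, and 39 stood in 11 runs of neighbouring P450 genes. The longest run on chromosome II held cyp-13A2 to cyp-13A8 (9783384 to 9807569), and runs on chromosome V held cyp-34A5 to cyp-34A10 (3955701 to 3972991) and cyp-33C3 to cyp-33C7 (2236140 to 2252591). By type, 44 were CYP2, 19 CYP3 and 11 CYP4, with cyp-23A1 as the CYP7 gene and cyp-44A1 as the mitochondrial one. Reads were counted without strand, and 24 genes shared exon sequence with another gene, in 1 case (cyp-14A3) over 10% of the exon length. The copies cyp-31A2 and cyp-31A3, with the pseudogene cyp-31A1, are nearly identical, so how reads were divided among them is uncertain.

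On day 1 fewer P450 genes had counts in sorted cells than in whole worms, and a single gene made up most of the level in sorted cells. Between 24 and 43 of the 76 genes had a count in a day 1 sorted library, 36 to 54 on day 7, and 47 to 64 in whole worms. The day 7 range overlapped that of whole worms, and detection over all genes was not counted. Only 5 genes had a count in all 32 libraries, and 11 had under 100 counts in all libraries together. The summed P450 level had a median of 384.5 CPM (21% O2) and 585.3 CPM (7%) in day 1 sorted cells, and 145.5 and 156.2 CPM without cyp-36A1. On day 7 the sums without cyp-36A1 were 327.2 and 503.3 CPM in sorted cells. Whole worms had sums of 253.2 (21%) and 265.5 (7%) CPM on day 1 and 385.0 and 500.5 CPM on day 7.

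**Figure D1:**
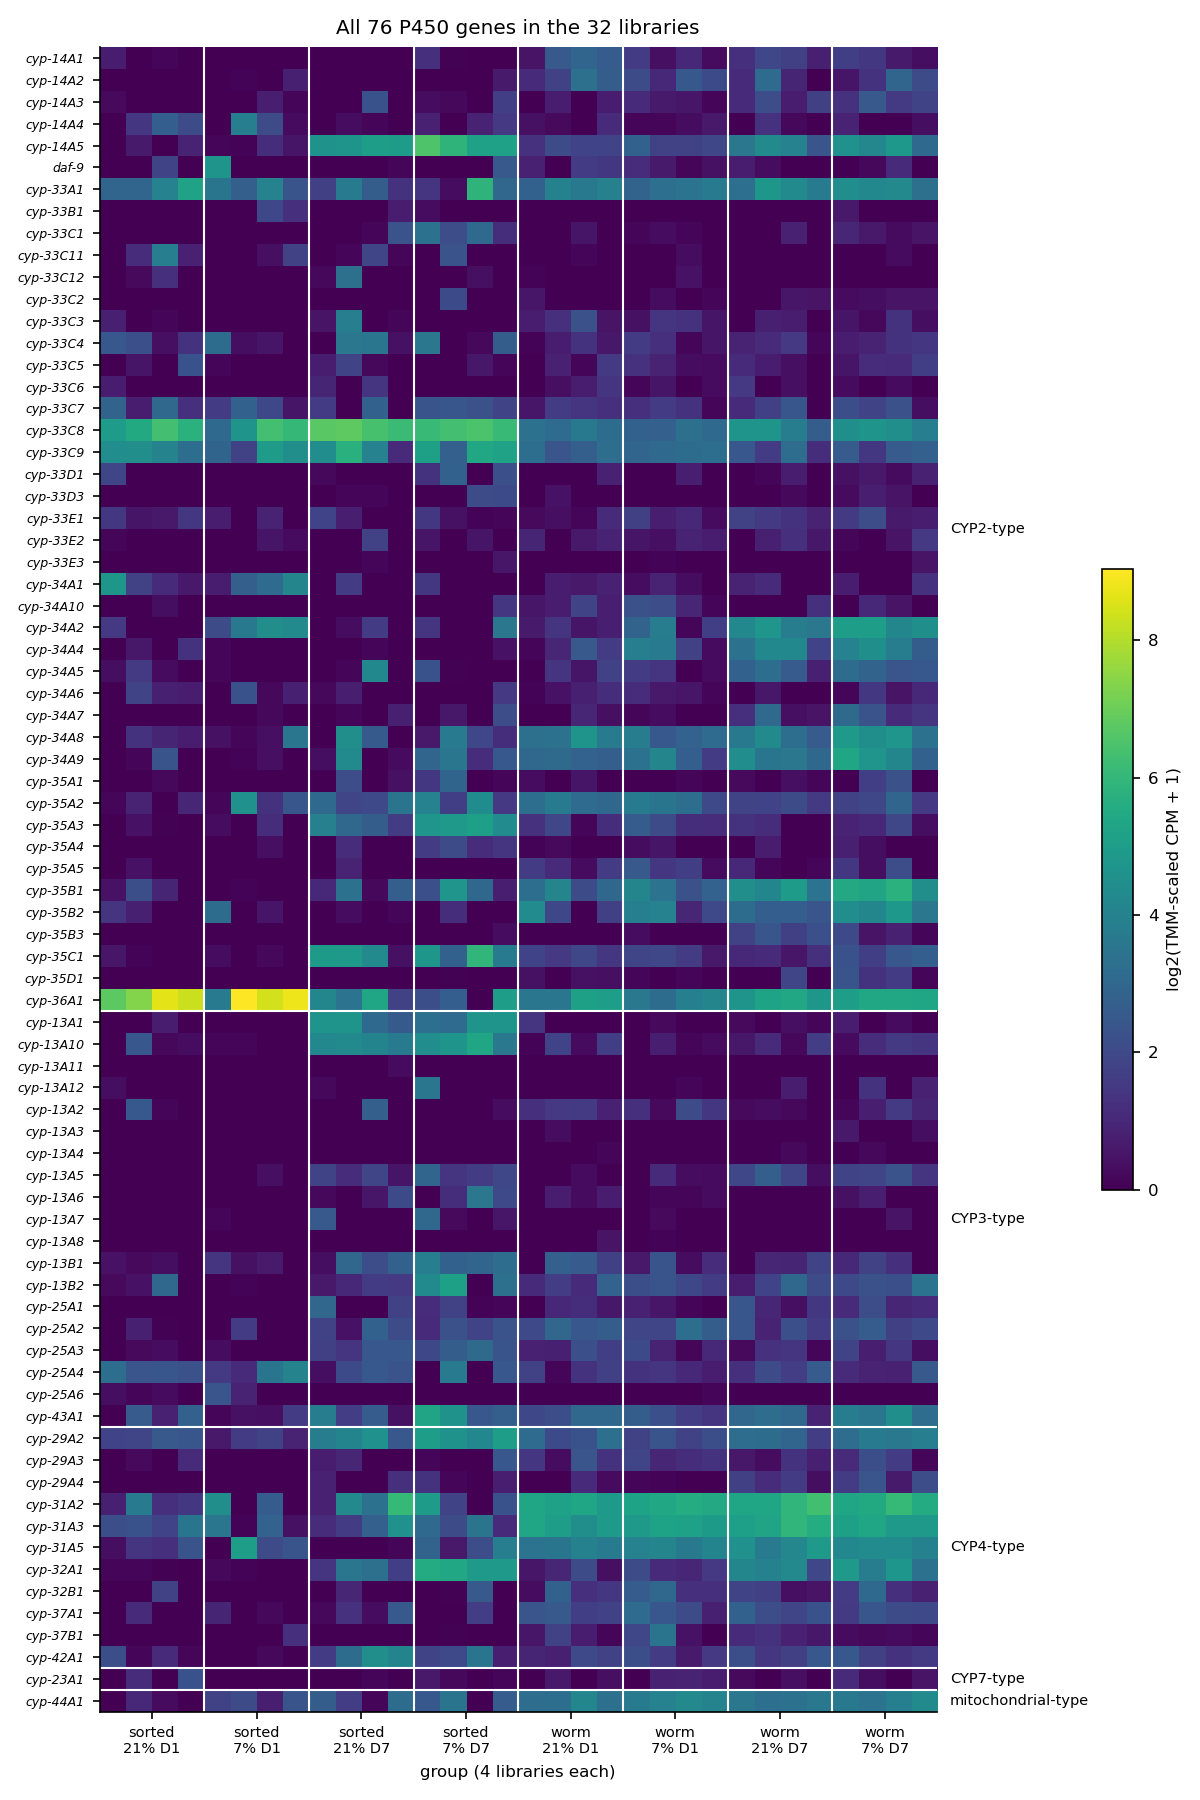
Level of each of the 76 cytochrome P450 genes (rows, ordered by clan) in each of the 32 libraries (columns, white lines between groups of 4), as log2 of TMM-scaled CPM plus 1. Day 1 sorted libraries are dark for most rows apart from cyp-36A1 and cyp-33C8, while day 7 sorted libraries and whole worms have counts in more rows.

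Levels per kilobase of exon were compared to rank the genes within a sample type and age over 8 libraries each. In day 1 sorted cells cyp-36A1 came first at 166 ± 102 CPM per kb (SD, n = 8), 63.9% of the summed P450 level, and cyp-33C8 second at 28.8 ± 15.8. Both gaps to the next gene exceeded the spread, while cyp-33C9 (9.74 ± 5.74), cyp-33A1 (7.81 ± 6.46) and cyp-34A1 (4.76 ± 5.78) did not differ from their neighbours beyond it. In day 7 sorted cells cyp-33C8 led at 50.5 ± 9.83 CPM per kb, ahead of cyp-14A5 (26.3 ± 14.9) by more than the spread. The genes after cyp-14A5, namely cyp-33C9, cyp-35C1 and cyp-32A1, lay at 15.9 to 12.3 CPM per kb and did not separate. Without the library that stood apart the first 5 genes of day 1 sorted cells kept that order, with cyp-36A1 at 189 ± 86 and cyp-33C8 at 32.3 ± 13.3 CPM per kb (SD, n = 7). The 5 highest genes made up 83.6% of the P450 level in day 1 sorted cells and 45.3% on day 7.

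The order in whole worms was led by the eggshell genes. On day 1 cyp-31A2 stood at 23.7 ± 3.44 CPM per kb and cyp-31A3 at 19.7 ± 3.68, each beyond the spread of the gene that followed, ahead of cyp-36A1 (9.85 ± 5.87), cyp-31A5 (9.41 ± 1.8) and cyp-44A1 (8.43 ± 2.54). On day 7 cyp-31A2 (31.6 ± 8.86) and cyp-31A3 (24.1 ± 6.8) were followed by cyp-36A1 (20.1 ± 3.98), cyp-35B1 (17.7 ± 8.95) and cyp-31A5 (13.5 ± 3.39), and no neighbours in that order differed beyond their spread. The 5 highest genes held 44.7% and 41.4% of the P450 level on day 1 and day 7.

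The first comparison asked which P450 genes differed between sorted neurons and whole worms. On day 1, cyp-36A1 and cyp-33C8 were higher in neurons and the larger set of genes that changed was lower. A gene was called when edgeR's quasi-likelihood test gave a Benjamini-Hochberg adjusted p under 0.1 over all genes tested and a fold change of at least 1.5. At 21% O2, 33 of the 76 genes passed the filter on low counts, 4 were called higher and 12 lower, and 30% of all tested genes were called higher and 22.8% lower. At 7% O2, 28 passed, 4 were higher and 11 lower, against 26.8% higher and 19.5% lower of all tested genes. The median log2 difference of the tested P450 genes was −1.82 at 21% and −2.32 at 7% O2, and that of all tested genes was 0.02 and −0.07. At 7% O2, leaving out sorted replicate 1 or sorted replicate 2 raised the calls to 23. With no filter on low counts there were 27 calls at 21% and 28 at 7%, of which 23 and 22 were lower. The genes cyp-14A2 at 21% and cyp-32B1 and cyp-29A3 at 7% had no count in sorted cells and could only be called lower. Such genes passed the filter only through whole worms.

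The gene cyp-36A1 (WBGene00007913, chromosome I, 8341682 to 8346023, minus strand), a CYP2-type enzyme that lies downstream of HIF-1 in the worm's behavioural response to oxygen, had the highest level. It measured 108, 163, 409 and 315 CPM in the day 1 sorted libraries at 21% O2 and 11.9, 524, 345 and 451 CPM at 7%. Whole worms of the same age measured 10.7, 10.7, 34.1 and 32.7 CPM at 21% O2 and 11.2, 8.1, 14 and 16.4 CPM at 7%. The groups did not overlap at 21% O2, and at 7% they overlapped only through sorted replicate 1, the library that stood apart. Neurons exceeded whole worms by a log2 difference of 3.64 ± 0.54 (SE, adjusted p = 0.000219) at 21% and 4.83 ± 0.90 (adjusted p = 0.00186) at 7%, where it was 5.23 (adjusted p = 1.53e-06) without that library. An exon overlap with figo-1 on the other strand covers 8.4% of its exon length.

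**Figure D2:**
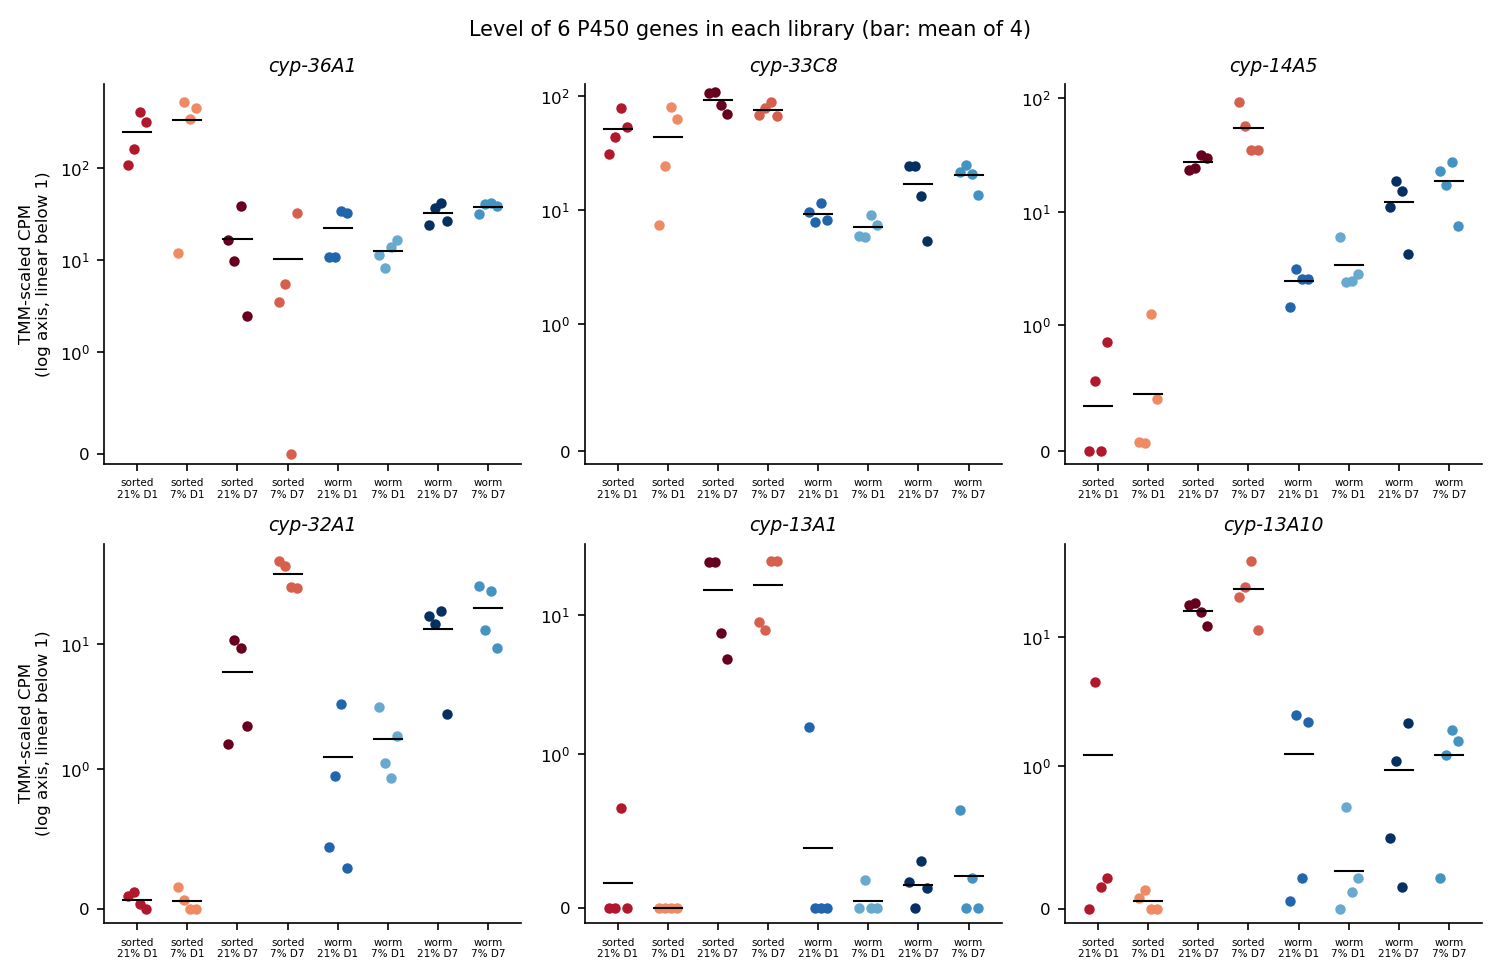
TMM-scaled CPM of 6 P450 genes in every library, by group, on an axis that is linear below 1 and logarithmic above (points: libraries, bars: mean of 4). cyp-36A1 is high in day 1 sorted cells (means 248.9 and 332.9 CPM) and low in day 7 sorted cells (16.96 and 10.36), while cyp-14A5, cyp-32A1, cyp-13A1 and cyp-13A10 run the other way.

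The CYP2-type gene cyp-33C8 (chromosome V, 3800782 to 3803542) was higher in neurons at both ages and both O2 levels, and no other member was called higher in all 4 of these comparisons. Day 1 sorted libraries measured 31.1, 43.9, 79.6 and 53.7 CPM at 21% O2 and 7.43, 24.3, 80.3 and 63.4 CPM at 7%, against 7.92 to 11.5 and 5.85 to 9.02 CPM in whole worms. The only sorted library within the whole-worm range was again replicate 1 at 7% O2. The log2 difference was 2.61 ± 0.37 (adjusted p = 0.000155) at 21% and 2.74 ± 0.71 (adjusted p = 0.0115) at 7%, where it was 3.09 ± 0.51 (adjusted p = 0.00106) without that library. The paralogue cyp-33C9 was higher by 1.42 ± 0.50 at 21% O2 (adjusted p = 0.037) with overlapping groups. The gene cyp-34A1 was called at 21% (4.13 ± 1.46, adjusted p = 0.0378) and at 7% (4.56 ± 1.32, adjusted p = 0.0196), again with overlap. Its sorted libraries at 21% measured 26.3, 2.34, 1.18 and 0.543 CPM, so replicate 1 carried the mean. At 7% O2 the 4th gene called higher was cyp-25A4 (2.70 ± 1.01, adjusted p = 0.058). Without the library that stood apart the differences at 7% were 4.89 ± 1.13 for cyp-34A1 and 3.00 ± 0.95 for cyp-25A4, and both were called.

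Among the genes lower in day 1 neurons were the eggshell genes. Whole worms measured 27.9 to 39.5 CPM of cyp-31A2 at 21% O2 and 37.2 to 46.8 CPM at 7%, and sorted cells measured 0.727, 12.4, 1.41 and 1.74 CPM at 21% and 21.2, 0, 5.14 and 0 CPM at 7%. No sorted library reached the whole-worm range at either O2 level. The log2 difference was −2.95 ± 0.81 (adjusted p = 0.0115) at 21%, and the gene was not called at 7%, although it was without the library that stood apart (−4.56 ± 1.52, adjusted p = 0.034). Its near-identical copy cyp-31A3, the only member called lower in neurons in all 4 comparisons, differed by −2.40 ± 0.55 (adjusted p = 0.00419) at 21% and −2.82 ± 1.16 (adjusted p = 0.0794) at 7%, where the call was lost without any 1 of 6 single libraries (adjusted p up to 0.148) and kept without the library that stood apart (−3.84, adjusted p = 0.0304). The 10 germline marker genes summed to a median of 5503 and 7103 CPM in these whole worms and to 780.2 and 1207 CPM in these sorted cells, none of the 10 being at 0, and their part in the cyp-31A result was not tested.

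**Figure D3:**
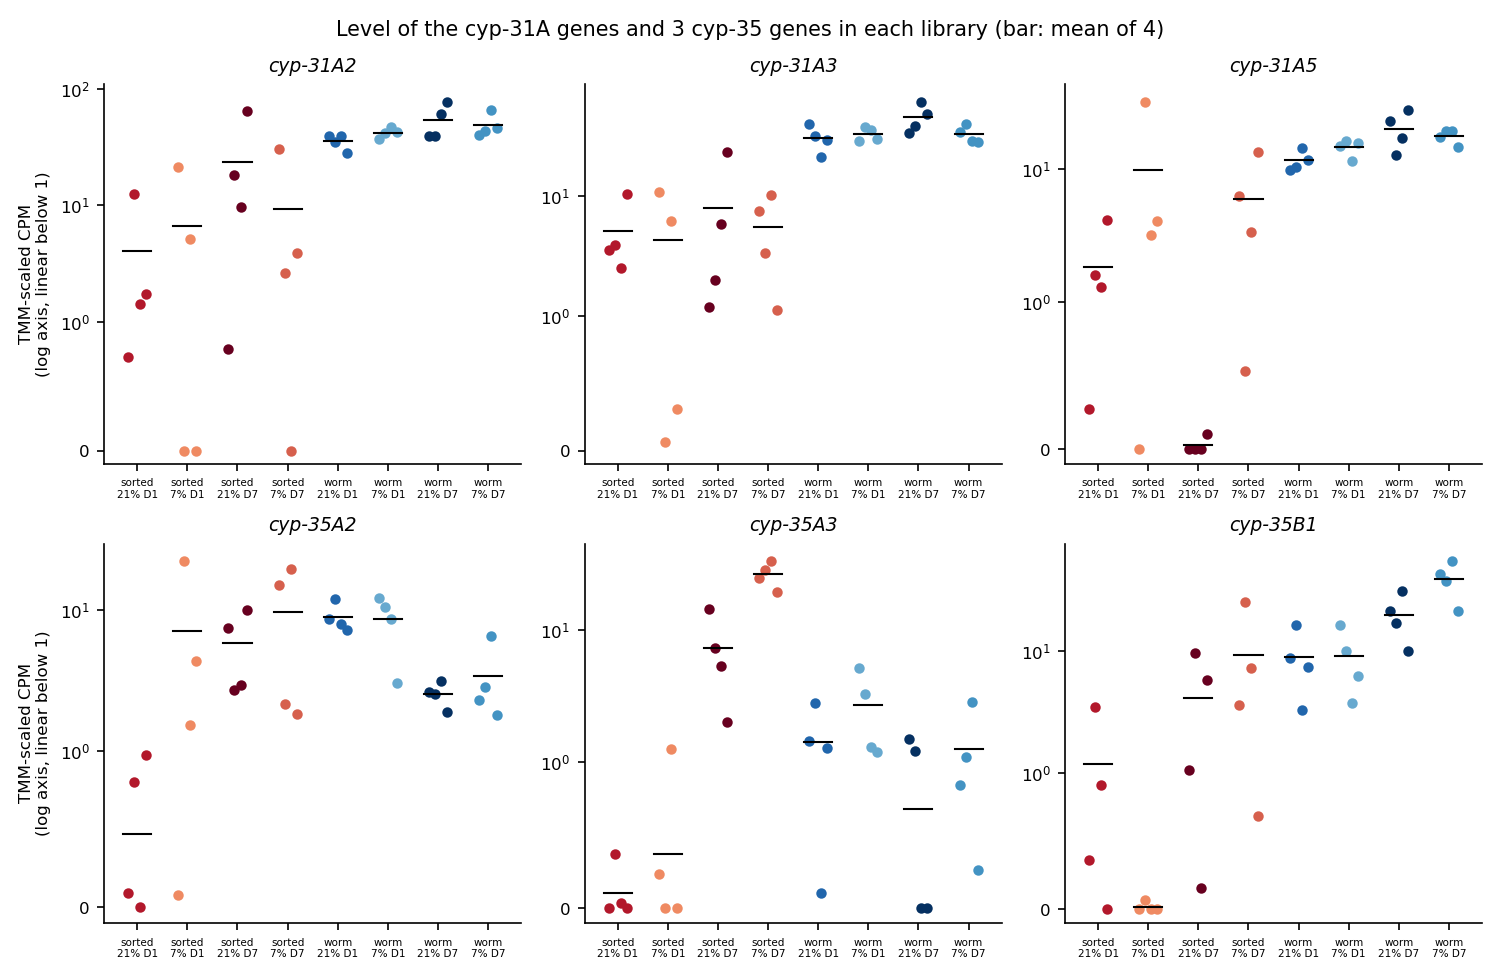
TMM-scaled CPM of 6 genes of the CYP31 and CYP35 families in every library, by group, on an axis that is linear below 1 and logarithmic above (points: libraries, bars: mean of 4). The cyp-31A genes are highest in whole worms at both ages, with cyp-31A2 at 27.9 to 77.1 CPM there, while cyp-35A3 is highest in day 7 sorted cells at 7% O2 (19.6 to 33.5 CPM).

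The mitochondrial-type gene cyp-44A1 was also lower in day 1 neurons at both O2 levels. It measured 0, 1.05, 0.191 and 0 CPM in sorted cells at 21% O2 and 2.4, 3.19, 0.695 and 4.06 CPM at 7%, against 8.46 to 16.8 and 12.7 to 18.3 CPM in whole worms, without overlap. This gave a log2 difference of −4.87 ± 1.20 (adjusted p = 0.00638) at 21% and −2.49 ± 0.70 (adjusted p = 0.0172) at 7%, or −2.45 (adjusted p = 0.0206) without the library that stood apart. The CYP2-type gene cyp-14A2 had no count in any day 1 sorted library at 21% O2 and 4.475 ± 3.498 CPM (SD, n = 4) in whole worms, at least 19.9-fold lower against a floor of 3 counts per library. A pair of CYP4-type genes had no count in day 1 sorted cells at 7% O2, where cyp-32B1 was at least 13.1-fold and cyp-29A3, which in worms acts with cyp-33E2 in making eicosanoids, at least 5.59-fold lower.

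The CYP35 genes, which foreign compounds induce in the worm intestine and which affect fat storage, were lower in day 1 neurons where called. At 21% O2, cyp-35A2 differed by −4.09 ± 1.18 (adjusted p = 0.0145), cyp-35C1 by −3.95 ± 1.31 (adjusted p = 0.0284) and cyp-35B1, a target of the insulin pathway factor DAF-16, by −2.74 ± 1.13 (adjusted p = 0.0675), a call lost without sorted replicate 3 and without whole-worm replicate 2 (adjusted p up to 0.176). At 7% O2, cyp-35B1 measured 0, 0.0651, 0 and 0 CPM in sorted cells against 3.75 to 16.2 CPM in whole worms, a log2 difference of −8.10 ± 1.25 (adjusted p = 0.000551), or −7.77 (adjusted p = 0.001) without the library that stood apart. The sorted values lay below the floor of 3 counts per library, so the size of this difference is uncertain. The 13 intestine markers summed to 127.6 to 198.3 CPM in day 1 sorted libraries and 542.3 to 1489 CPM in day 1 whole-worm libraries. Their part in these differences was not tested.

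On day 7, cyp-13A1, cyp-13A10, cyp-33C8, cyp-33C9, cyp-35A3 and cyp-35C1 were higher in neurons than in whole worms at both O2 levels. At 21% O2, 38 genes passed the filter, 7 were called higher and 6 lower, against 23.5% higher and 16.8% lower among all genes tested. At 7% O2, 43 passed, 11 were higher and 7 lower, against 24.7% and 21.1%. The shares of tested P450 genes called higher (18.4% and 25.6%) and lower (15.8% and 16.3%) were thus near those of all genes. Of the CYP35 genes, 2 were higher and 2 lower at 21% O2, and 3 higher and 2 lower at 7%. The median log2 difference of the tested P450 genes was −0.43 at 21% and 0.25 at 7% O2, beside 0.09 and 0.04 for all genes. With no filter on low counts the 13 calls at 21% became 20. The 6 genes called higher at both O2 levels are 85.7% of the 7 and 54.5% of the 11.

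The CYP3-type gene cyp-13A1 (chromosome II, 9779181 to 9781997) measured 24.4, 24.5, 7.47 and 4.87 CPM in day 7 sorted cells at 21% O2 and 8.91, 7.85, 24.8 and 24.7 CPM at 7%. No day 7 whole-worm library exceeded 0.632 CPM. Its log2 difference was 6.62 ± 1.07 (adjusted p = 0.00103) at 21% and 6.16 ± 1.09 (adjusted p = 0.00104) at 7%. Its relative cyp-13A10 (chromosome II, 9660839 to 9662884) measured 12.1 to 18.5 CPM in day 7 sorted cells at 21% O2 and 11.4 to 39.1 CPM at 7%, against 0.151 to 2.14 CPM in whole worms, with log2 differences of 4.04 ± 0.82 (adjusted p = 0.00387) and 4.29 ± 0.73 (adjusted p = 0.000794).

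The CYP2-type gene cyp-35A3 measured 14.4, 7.36, 5.37 and 2.01 CPM in day 7 sorted cells at 21% O2 and 25, 28.6, 33.5 and 19.6 CPM at 7%, while day 7 whole worms stayed between 0 and 2.84 CPM. The groups did not overlap at either O2 level. The log2 difference was 4.42 ± 0.70 (adjusted p = 0.000461) at 7% and 3.43 ± 1.32 (adjusted p = 0.069) at 21%, where leaving out single libraries ended the call in 5 of 8 cases (adjusted p up to 0.15). The gene cyp-33C8 remained higher in day 7 neurons, with 70.3 to 109 CPM at 21% O2 and 67.4 to 88.7 CPM at 7%, log2 differences of 2.46 ± 0.47 (adjusted p = 0.00267) and 1.89 ± 0.29 (adjusted p = 0.000348).

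Lower in day 7 neurons at both O2 levels were cyp-31A3, cyp-34A2, cyp-34A4 and cyp-35B2. At 7% O2 the call on cyp-34A2 was lost in 7 of 12 alternatives, DESeq2 among them (adjusted p up to 0.183). The gene cyp-31A5 had almost no counts in day 7 sorted cells at 21% O2 (0, 0, 0 and 0.106 CPM) against 12.7 to 27.8 CPM in whole worms, a log2 difference of −8.91 ± 1.01 (adjusted p = 0.000106). Those sorted values lay below the floor of 3 counts per library, so the size of the difference is uncertain. At 7% O2 cyp-31A5 measured 6.3, 0.532, 3.36 and 13.5 CPM in sorted cells and was not called. The CYP2-type neighbours cyp-34A4 and cyp-35B2 of chromosome V differed by −8.22 ± 1.23 (adjusted p = 0.000646) and −5.89 ± 1.19 (adjusted p = 0.00365) at 21%, and by −7.46 ± 1.28 (adjusted p = 0.000836) and −5.64 ± 1.29 (adjusted p = 0.00491) at 7%. Another gene of that run, cyp-35B3, had no count in sorted cells at 21% O2 and was at least 9.78-fold lower.

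The age comparison asked how P450 levels changed from day 1 to day 7. In sorted neurons more P450 genes rose than fell at both O2 levels, and the CYP3-type genes cyp-13A1, cyp-13A10 and their relatives, cyp-14A5, cyp-32A1, cyp-35A3 and cyp-35C1 were among those that rose while cyp-36A1 fell. At 21% O2, 40 genes passed the filter, 15 rose and 2 fell, against 12.1% of all tested genes rising and 18% falling. At 7% O2, 40 passed, 19 rose and 1 fell, against 15.4% and 21%. The filter ran over all sorted libraries together. With only the day 1 sorted groups in a fit 16 P450 genes passed it, and with only the day 7 sorted groups 32 did. Genes that passed only through day 7 had little room to be called lower, so these counts and medians do not weigh both directions alike. The median log2 change of the tested P450 genes was 2.37 and 3.16 (2.01 and 2.12 with genes that had no count in one group set at their bound), beside −0.20 and −0.28 for all genes. With DESeq2's size factors in place of TMM the median of all genes moved by 0.29 at 21% and 0.22 at 7%, and all named calls kept their direction. With only the day 1 and day 7 groups at 21% O2 in the fit, 10 genes were called instead of 17. Both O2 levels shared 13 of the genes that rose (86.7% of 15 and 68.4% of 19).

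The gene cyp-36A1 fell from 108 to 409 CPM on day 1 to 16.6, 9.85, 38.9 and 2.44 CPM on day 7 at 21% O2. At 7% O2 the day 7 libraries measured 3.48, 5.45, 0 and 32.5 CPM, all below 3 of the 4 day 1 libraries and 1 of them above replicate 1. The log2 change was −3.85 ± 1.25 (adjusted p = 0.0338) at 21% and −5.01 ± 1.32 (adjusted p = 0.00906) at 7%. The call at 21% was lost without sorted day 7 replicate 4 (−3.25) and without the low-count filter (−3.62), with an adjusted p of up to 0.156, and without the day 1 library that stood apart the change at 7% was −5.42 (adjusted p = 0.000804). That replicate 4 is the library with a germline sum of 2949 CPM. The 8 defining genes of the O2-sensing neurons all fell as well, with median log2 changes of −4.31 and −4.90, none of the 8 being at 0 on day 7, and their part in the cyp-36A1 change was not tested.

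The CYP2-type gene cyp-14A5 (chromosome V, 5421018 to 5423282) rose from 0, 0.555, 0 and 0.869 CPM to 23.4, 24.3, 31.4 and 29.8 CPM at 21% O2. At 7% O2 it rose from 0.0774, 0.0651, 1.25 and 0.416 CPM to 92.4, 57.3, 35.2 and 35.1 CPM. Day 1 and day 7 did not overlap at either O2 level, and the log2 change was 6.30 ± 1.20 (adjusted p = 0.00062) and 7.00 ± 1.24 (adjusted p = 0.000228). The CYP4-type gene cyp-32A1 (chromosome V, 7781811 to 7784594) rose from at most 0.155 CPM on day 1 to 1.58, 10.7, 9.19 and 2.22 CPM at 21% and 45.7, 41.4, 28.2 and 27.6 CPM at 7%. Its log2 change was 6.33 ± 1.14 (adjusted p = 0.000387) and 8.96 ± 1.27 (adjusted p = 2.29e-05), again without overlap.

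Among all genes tested for age in sorted cells, 12.1% rose at 21% and 15.4% at 7% O2. Of the 11 CYP3-type genes that passed the filter in sorted cells, 7 rose at 21% and 9 at 7% O2. Of these, cyp-13A5, cyp-13A6 and cyp-25A1 at 21% and cyp-13A1, cyp-13A6 and cyp-25A1 at 7% had no count in the day 1 libraries compared, so they could only have risen. The gene cyp-13A1 had a count in only 1 of the 8 day 1 sorted libraries, at 0.649 CPM. Its log2 change was 6.34 ± 1.48 (adjusted p = 0.0049) at 21%, and at 7%, where all day 1 libraries were at 0, it was at least 57.3-fold higher on day 7. The gene cyp-13A10 measured 0, 4.5, 0.153 and 0.217 CPM on day 1 at 21% and at most 0.13 CPM at 7%, and rose by 3.71 ± 1.21 (adjusted p = 0.0318) and 8.42 ± 1.56 (adjusted p = 0.000372). With lower levels, cyp-13A5 rose at least 7.77-fold at 21% O2, and cyp-13A6 at least 4.09-fold and 13.1-fold and cyp-25A1 at least 10.4-fold and 3.34-fold at 21% and 7%. The CYP3-type gene cyp-25A3 rose by 4.76 ± 1.62 (adjusted p = 0.0378) and 6.14 ± 1.75 (adjusted p = 0.0121).

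Of the 21 CYP2-type genes that passed, 6 rose at 21% and 7 at 7%, and of the 7 CYP4-type genes 2 and 3. This stands beside 12.1% and 15.4% of all tested genes. The fat storage gene cyp-35A3 rose from at most 1.25 CPM in any day 1 sorted library, by 5.96 ± 1.47 (adjusted p = 0.00561) and 6.23 ± 1.47 (adjusted p = 0.00323). The gene cyp-35C1 measured at most 0.454 CPM in day 1 sorted cells and 29, 28, 18.5 and 0.318 CPM (21%) and 26.8, 6.07, 61.3 and 12.1 CPM (7%) on day 7. It rose by 7.21 ± 1.58 (adjusted p = 0.00227) with 1 overlapping library and by 8.05 ± 1.65 (adjusted p = 0.000964) without overlap. The CYP4-type gene cyp-29A2 rose by 1.99 ± 0.78 (adjusted p = 0.0704) and 4.19 ± 0.86 (adjusted p = 0.00092). Besides cyp-36A1, the gene that fell was cyp-31A5 at 21% O2 (−5.63 ± 1.89, adjusted p = 0.0355).

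Markers of other cells moved in the same libraries. The 10 epidermis markers summed to 30.49 to 131.7 CPM in day 1 and 255.3 to 529.4 CPM in day 7 sorted libraries, carried by the collagen gene sqt-3 (means 19.97 and 1.839 CPM on day 1, 318.2 and 433.3 on day 7). Of the 4 epidermis markers tested, 2 rose and 2 fell at each O2 level, and bli-1 was at 0 in all day 7 sorted libraries. The 13 intestine markers summed to 127.6 to 198.3 CPM on day 1 and 178.1 to 255.1 CPM on day 7, 1 of 10 tested rising and 1 falling at 21% O2 and 2 rising at 7%, with ges-1 at 0 in day 1 sorted cells at 7% O2. Their part in the age results was not tested.

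In whole worms P450 genes also rose more often than they fell, and the genes were in part others. At 21% O2, 50 genes passed the filter, 13 rose and 2 fell, against 7.92% and 10.7% of all tested genes. At 7% O2, 50 passed, 16 rose and 2 fell, against 7.49% and 8.36%, and without replicate 1 of the day 7 worms at 7% O2 the 18 calls became 11. At 21% O2 with only the groups compared in the fit, the 15 calls became 7. The filter ran over all whole-worm libraries together, so genes that passed only through day 7 had little room to be called lower. The gene cyp-35B3, for example, had no count on day 1 at 21% O2 and could only have risen there. The median log2 change of the tested P450 genes was 0.51 and 0.77, beside −0.01 and −0.02 for all genes. Both O2 levels shared 8 of the genes that rose (61.5% of 13 and 50% of 16). At 21% O2, 3 genes rose in both neurons and whole worms (cyp-13A5, cyp-14A5 and cyp-32A1), which is 20% of the 15 and 23.1% of the 13, and at 7% O2 there were 7, which is 36.8% of the 19 and 43.8% of the 16. In the same whole-worm libraries 6 of 12 tested intestine markers fell at 21% O2, and 4 fell and 1 rose at 7%. All 6 body wall muscle markers and 3 of 5 tested epidermis markers fell at both, the muscle sum from a median of 8449 to 1378 CPM at 21% and from 5464 to 1943 CPM at 7%. Their part in the whole-worm age results was not tested.

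The gene cyp-14A5 rose in whole worms from 1.45 to 3.15 CPM on day 1 to 10.9, 18.6, 15.1 and 4.27 CPM at 21% O2, and from 2.42 to 5.99 CPM to 22.7, 17.3, 27.1 and 7.47 CPM at 7%. The log2 change was 2.39 ± 0.47 (adjusted p = 0.00145) and 2.46 ± 0.47 (adjusted p = 0.00141), without overlap. The gene cyp-32A1 rose by 3.5 ± 0.68 (adjusted p = 0.00146) and 3.46 ± 0.67 (adjusted p = 0.0018), with overlap at 21% O2. The CYP2-type gene cyp-34A2 measured 0.424 to 1.55 CPM on day 1 and 11.1 to 25.4 CPM on day 7 at 21% O2, a log2 change of 4.37 ± 0.78 (adjusted p = 0.000963). It rose by 2.22 ± 0.67 (adjusted p = 0.037) at 7%.

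The gene cyp-35B1, which lies downstream of DAF-16 in the insulin pathway, rose in whole worms at 7% O2 from 16.2, 9.87, 3.75 and 6.25 CPM to 42.5, 37.4, 54.1 and 21.1 CPM. All day 7 libraries exceeded all day 1 libraries, and the log2 change was 2.11 ± 0.47 (adjusted p = 0.00594). At 21% O2 it was 1.18 ± 0.47 (adjusted p = 0.0923), a call that 10 of 21 alternatives ended (adjusted p up to 0.256). The gene cyp-36A1, which fell in neurons, rose in whole worms at 7% O2 by 1.63 ± 0.34 (adjusted p = 0.00283), from 8.1 to 16.4 CPM to 31.5 to 42 CPM without overlap, and was not called at 21%. The fat storage gene cyp-35A2 fell at both O2 levels, by −1.76 ± 0.46 (adjusted p = 0.0128) and −1.36 ± 0.46 (adjusted p = 0.054), and the call at 7% was lost in 6 of 21 alternatives (adjusted p up to 0.164). At 21% O2, cyp-31A2 rose by 0.67 ± 0.21 (adjusted p = 0.0377) and cyp-31A3 by 0.61 ± 0.22 (adjusted p = 0.0592), calls that were lost in 4 and 5 of 21 alternatives.

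**Figure D4:**
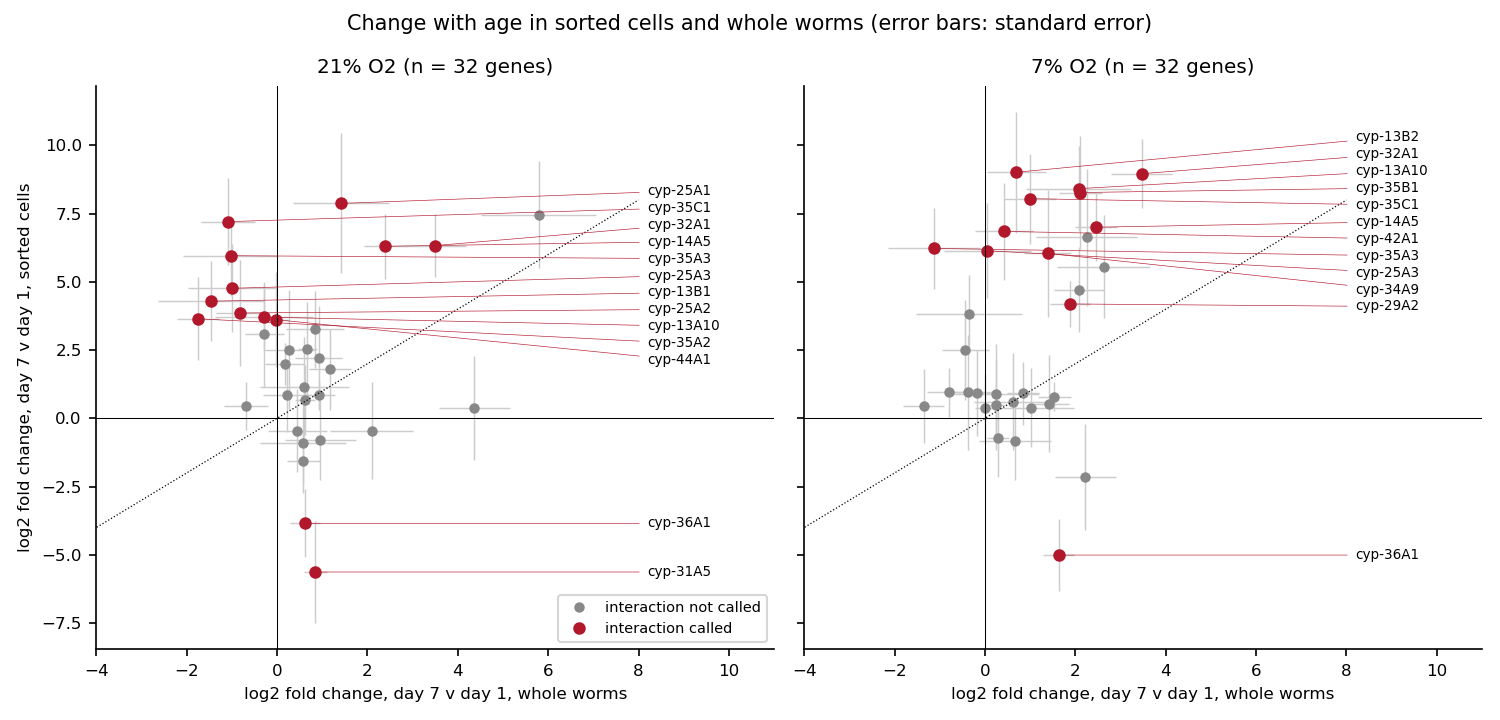
Change with age (log2 fold change, day 7 v day 1) of the 32 P450 genes tested in both sample types, in whole worms (x axis) and sorted cells (y axis), at 21% and 7% O2; bars are standard errors, the dotted line marks equal change, and red points passed the test of the difference between both changes. Most red points lie above the line at 3.61 to 9.02 in sorted cells, with cyp-36A1 (−3.85 and −5.01 in sorted cells) and, at 21% O2, cyp-31A5 below it.

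Whether the change with age differed between neurons and whole worms was tested as an interaction over all 32 libraries. At 21% O2, 63 genes were tested and 17 called, 14 with the larger rise in neurons, and 21.6% of all tested genes were called either way. At 7% O2, 18 of 63 were called, 17 with the larger rise in neurons, against 29.5% of all genes. The shares of tested P450 genes called, 27% at 21% and 28.6% at 7% O2, were thus near those of all genes. The split by direction was not counted for all genes. The 9 genes called at both O2 levels were cyp-13A1, cyp-13A6, cyp-13A10, cyp-14A5, cyp-25A3, cyp-32A1, cyp-35A3, cyp-35C1 and cyp-36A1, and 26 were called at either. With the replicate number as a block the call on cyp-13A6 was lost at 7% O2 (adjusted p = 0.163). Among the genes with the smallest p were cyp-35C1, with a difference of 8.35 ± 1.58 (adjusted p = 0.000307) at 21% and 7.04 ± 1.55 (adjusted p = 0.00113) at 7%, and cyp-35A3, with 6.99 ± 1.81 (adjusted p = 0.00707) and 7.36 ± 1.80 (adjusted p = 0.00319). Whole worms held 0.106 to 5.12 CPM of cyp-35A3 on day 1 and 0 to 2.84 CPM on day 7.

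The gene cyp-36A1 went the other way, with a difference of −4.42 ± 1.30 (adjusted p = 0.0189) at 21% O2 and −6.64 ± 1.36 (adjusted p = 0.000638) at 7%. The difference for cyp-14A5 was 3.97 ± 1.15 (adjusted p = 0.016) and 4.58 ± 1.17 (adjusted p = 0.0046), and for cyp-32A1 it was 2.90 ± 1.17 (adjusted p = 0.09) and 5.47 ± 1.24 (adjusted p = 0.00155). At 21% O2 the call on cyp-32A1 was lost in 15 of 36 alternatives (adjusted p up to 0.314) and that on cyp-13A10 in 14 (adjusted p up to 0.165). The call on cyp-13A1 rested on single whole-worm libraries with its only day 1 counts: without replicate 1 of day 1 worms at 21% O2 the difference was 2.52 (adjusted p = 0.909). Without replicate 4 of the day 1 sorted cells at 21% O2, 11 genes were called instead of 17.

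**Figure D5:**
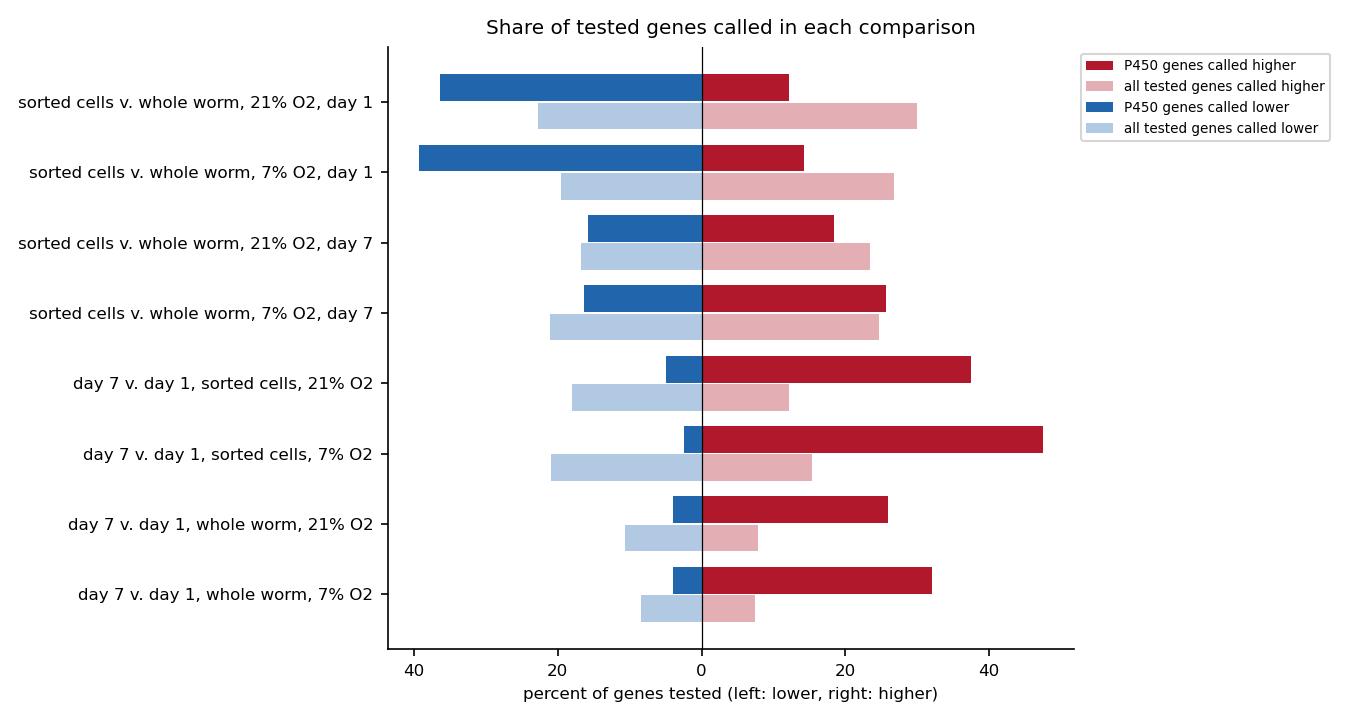
Percent of tested P450 genes and of all tested genes called lower (left of 0) and higher (right of 0) in the 4 comparisons of neurons with whole worms and the 4 comparisons of day 7 with day 1. With age in neurons 37.5% (21% O2) and 47.5% (7% O2) of the tested P450 genes were called higher, beside 12.1% and 15.4% of all genes, and on day 1 36.4% and 39.3% were called lower in neurons than in whole worms, beside 22.8% and 19.5%. Genes with few or no counts in a group passed the filter through the other group and had little room to be called the other way.

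The comparison of 21% with 7% O2 called no P450 gene in sorted cells or whole worms at either age with edgeR's quasi-likelihood test. Of 40 genes tested in sorted cells, 8 on day 1 and 4 on day 7 had an unadjusted p under 0.05, and of 50 in whole worms 4 and 6 did. Few genes of any kind were called with this test. These were 0.0939% and 0.154% of all tested genes in sorted cells on day 1 and day 7 and 0.00918% and 0.0551% in whole worms. The study, which used DESeq2 at the same thresholds, reported more genes differing by O2 in both sample types at both ages. DESeq2 called 3 P450 genes in day 1 sorted cells, 2 in day 7 sorted cells, 1 in day 1 whole worms and 0 in day 7 whole worms. The test of whether the age change depended on O2 called 0 genes in sorted cells and 0 in whole worms (0.0597% and 0.211% of all genes), with 6 and 7 at an unadjusted p under 0.05, and DESeq2 called cyp-13B2 in sorted cells.

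In day 7 sorted cells cyp-31A5 had the 0, 0, 0 and 0.106 CPM given above at 21% O2 and 6.3, 0.532, 3.36 and 13.5 CPM at 7%. All libraries at 21% lay below all at 7%, with a log2 difference of −7.34 ± 2.00 (adjusted p = 0.313). The gene cyp-32A1 measured 1.58 to 10.7 CPM at 21% and 27.6 to 45.7 CPM at 7% in the same cells, without overlap and with a log2 difference of −2.59 ± 0.92 (adjusted p = 0.546). DESeq2 called both (adjusted p = 0.00407 and 0.0568). In these cells cyp-35A3 (2.01 to 14.4 CPM at 21%, 19.6 to 33.5 at 7%) and cyp-14A5 (23.4 to 31.4 CPM at 21%, 35.1 to 92.4 at 7%) did not overlap between O2 levels either, and neither was called. Of the 76 members, 5 lay wholly lower at 21% than at 7% in these cells and 0 wholly higher. The share of all genes without overlap was not counted, so no difference by O2 is read from it.

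The CYP2-type gene cyp-34A2 measured 1.82, 0, 0 and 0 CPM in day 1 sorted cells at 21% O2 and 3.33, 11.7, 21.1 and 19 CPM at 7%. These groups did not overlap, which was not counted for all genes here either, and the gene was not called (−4.92 ± 2.20, adjusted p = 0.657). In day 1 whole worms it measured 0.556, 1.55, 0.424 and 0.691 CPM at 21% and 6.32, 13.2, 0.117 and 2.16 CPM at 7%, with overlap and a log2 difference of −2.76 ± 0.75 (adjusted p = 0.192). Without replicate 3 at 7% O2, the library at 0.117 CPM, the difference in whole worms was −3.15 and called (adjusted p = 0.0735). The 3 genes that DESeq2 called higher at 21% O2 in day 1 sorted cells were cyp-42A1, cyp-13B2 and cyp-13A10, and 4.5 CPM in replicate 2 was the only day 1 value of cyp-13A10 above 0.217 CPM.

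Among the 12 comparisons of 2 groups daf-9 was tested once, and the tests of tissue by age did not call it (−1.87 ± 2.86 and −1.53 ± 2.98). It had counts in 15 of 32 libraries and measured 0, 0, 2.6 and 0 CPM in day 1 sorted cells at 21% O2 and 24.8, 0, 0 and 0 CPM at 7%, the highest value being in the library that stood apart. Whole worms held at most 2.02 CPM. In day 1 cells at 21% O2 the log2 difference between neurons and whole worms was −0.68 and not called. The behavioural gene cyp-13A12 had a mean of 0.068 and 0 CPM in day 1 sorted cells, 0.033 and 2.663 ± 5.326 CPM (SD, n = 4) in day 7 sorted cells and at most 0.565 CPM in a whole-worm group. The pharyngeal eicosanoid gene cyp-33E2 stayed at group means of 0.023 to 0.647 CPM and the CYP7-type cyp-23A1 at 0 to 1.258 CPM. None of the last 3 passed the filter in any of the 12 comparisons of 2 groups, like 16 of the 76 genes in all, while 60 were tested and 47 called at least once in them. In the tests of tissue by age cyp-23A1 and cyp-33E2 were tested and not called.

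Genes that work with P450 enzymes were read from lists. Of the 5 redox partners, 4 rose with age in neurons at 21% O2 and 3 at 7%, beside 12.1% and 15.4% of all genes. Whole worms had 0 and 1 of the 5 rising, beside 7.92% and 7.49% of all genes. The P450 reductase emb-8 rose in neurons by 1.07 ± 0.36 (adjusted p = 0.0344) and 1.26 ± 0.36 (adjusted p = 0.0116), from means of 115.1 and 115.6 CPM to 238.3 and 276.4 CPM. The cytochrome b5 gene cytb-5.1 rose by 2.55 ± 1.02 (adjusted p = 0.0758) and 3.19 ± 1.04 (adjusted p = 0.0267). Its paralogue cytb-5.2 rose by 2.35 ± 0.83 at 21% O2 (adjusted p = 0.0449) and vem-1 by 2.37 ± 0.70 (adjusted p = 0.0184), while hpo-19 rose by 2.19 ± 0.83 at 7% (adjusted p = 0.0521). In the same sorted libraries 8 of 9 general neuron markers fell at each O2 level and markers of other cells moved. Their part in these rises was not tested. Relative to whole worms, emb-8 (−0.72 ± 0.20, adjusted p = 0.0118) and hpo-19 (−1.5 ± 0.47, adjusted p = 0.0229) were lower in day 1 neurons at 21% O2.

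Of the 9 listed genes of the dafachronic acid pathway other than daf-9, 7 were matched. The receptor daf-12, its co-repressor din-1 and the sterol transporter ncr-1 were higher in day 1 neurons at both O2 levels. Their means were 162.5, 1149 and 171.9 CPM in sorted cells at 21% O2 against 24.2, 181 and 25.1 CPM in whole worms, log2 differences of 2.90 ± 0.30, 2.81 ± 0.21 and 2.91 ± 0.31. With age in neurons din-1 fell by 1.59 at both O2 levels and ncr-1 by 1.60 and 0.87, while ncr-2 rose at 7% O2 (8.55 ± 2.13, adjusted p = 0.00481) and daf-12 was not called (−0.85 ± 0.40 and −0.62 ± 0.40). In the same neurons 8 of 9 general neuron markers fell, with median log2 changes of −3.07 and −3.35 over the list, as did all 8 O2-sensing and all 6 touch neuron markers, beside 18% and 21% of all genes, and their part in these falls was not tested. None of the list was called for age in whole worms. The synthesis enzymes daf-36 and hsd-1 stayed at group means of at most 1.078 and 0.1061 CPM and were not tested in neurons, and dhs-16 was not called.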

How the data were processed

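The authors deposited raw counts of fragments per gene, made without regard to strand on the WBcel235 build after removal of ribosomal RNA genes. The submitters' processing notes name cutadapt 1.9, STAR 2.5.2b and featureCounts 1.5.1. RNA was amplified before library preparation, and no molecular identifiers were counted. Library totals ran from 5365596 to 30666288, and F31C3.14 took 5.326% to 53.79% of them. Replicates are labelled as biological.

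Counts were analysed in R 4.3.3 with edgeR 4.0.16 (TMM scaling, filterByExpr with a minimum count of 10, robust quasi-likelihood F test, two-sided). Genes were called at a Benjamini-Hochberg adjusted p under 0.1 over all genes tested and a 1.5-fold or larger change, as in the study, which used DESeq2. Neurons and whole worms were compared within their own 8 libraries, age and O2 within the 16 libraries of a sample type, and the interaction of tissue and age over all 32. Standard errors were taken from the log2 change and its F statistic. The script was tested on simulated counts. Folds against a group with no counts use a floor of 3 counts per library, which covers counting error only. Fitted log2 differences of genes with a group below that floor depend on the prior count and are no bounds. Alternatives were DESeq2 1.42.0, its size factors, no filter, only the groups compared, the replicate number as a block, and each library left out.

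The members and lists were chosen with earlier results of these data known. Genes named with values were those with a known role in C. elegans, those called in an O2 comparison or interaction, up to 6 in each direction per comparison with the smallest p among calls whose groups did not overlap, the 5 highest per sample type and age, and each redox partner and dafachronic acid gene. Other genes named, such as cyp-34A1 and cyp-25A4, were chosen after their values were seen.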

Additional observations from a re-analysis of the deposited data

Results flagged for a closer look

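Single libraries lay far from the other 3 of their group in 22 of 143 groups of 4, for the 18 members given by library. The gap to the nearest library exceeded Dixon's critical share of the group's range, which chance gives in about 1 in 20 groups, and in 19 of the 22 cases another library of the group was at 0 CPM. In day 1 sorted cells at 21% O2 these were cyp-13A10 at 4.5 CPM, cyp-31A2 at 12.4 CPM and cyp-35A3 at 0.37 CPM in replicate 2, cyp-13A1 at 0.649 CPM and daf-9 at 2.6 CPM in replicate 3, and cyp-35C1 at 0.454 CPM and cyp-34A2 at 1.82 CPM in replicate 1. In day 1 sorted cells at 7% O2, replicate 2 held 32.2 CPM of cyp-31A5 and 0.0651 CPM of cyp-35B1, and replicate 1 held 24.8 CPM of daf-9. In day 7 sorted cells at 21% O2, replicate 4 held 0.106 CPM of both cyp-31A5 and daf-9 and replicate 3 held 2.02 CPM of cyp-34A2. In day 7 sorted cells at 7% O2, replicate 4 held 32.5 CPM of cyp-36A1, 10.9 CPM of cyp-34A2 and 4.69 CPM of daf-9, and replicate 1 held 30.7 CPM of cyp-31A2. In whole worms these were cyp-44A1 at 16.8 CPM (day 1, 21% O2, replicate 3), cyp-13A1 at 1.56 CPM (day 1, 21%, replicate 1) and 0.177 CPM (day 1, 7%, replicate 2), cyp-14A5 at 5.99 CPM (day 1, 7%, replicate 1) and daf-9 at 1.14 CPM (day 7, 7%, replicate 3).

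The change with age differed between sorted cells and whole worms for 26 members by the interaction test of edgeR. At 21% and 7% O2, 27% and 28.6% of the tested members were called, near the 21.6% and 29.5% of all tested genes. The fitted log2 differences of genes with a group at 0 CPM depend on the prior count and are no bounds. At 21% O2 the rise was larger in sorted cells for cyp-13A6 (11.45), cyp-35C1 (8.35), cyp-13A1 (7.72), cyp-35A3 (6.99), cyp-25A1 (6.34), cyp-33C3 (6.18), cyp-13B1 (5.78), cyp-25A3 (5.77), cyp-35A2 (5.45), cyp-25A2 (4.68), cyp-13A10 (4.02), cyp-14A5 (3.97), cyp-44A1 (3.64) and cyp-32A1 (2.90). It was smaller, or a fall, for cyp-34A4 (−6.41), cyp-31A5 (−6.39) and cyp-36A1 (−4.42). At 7% O2 the rise was larger in sorted cells for cyp-13A1 (8.80), cyp-13B2 (8.25), cyp-34A10 (7.72), cyp-35A3 (7.36), cyp-13A6 (7.33), cyp-32B1 (7.16), cyp-35C1 (7.04), cyp-33C1 (6.88), cyp-29A3 (6.58), cyp-42A1 (6.43), cyp-13A10 (6.31), cyp-35B1 (6.06), cyp-25A3 (6.05), cyp-32A1 (5.47), cyp-34A9 (4.73), cyp-14A5 (4.58) and cyp-29A2 (2.32). For cyp-36A1 the difference was −6.64. At 21% O2 the calls on cyp-44A1, cyp-33C3, cyp-32A1, cyp-13A10 and cyp-25A2 were lost in 20, 15, 15, 14 and 6 of 36 alternatives, and at 7% that on cyp-34A9 in 10. Each of the others was lost in at most 3.

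The pseudogene cyp-31A1, which the members leave out, had counts above those of whole worms in sorted cells. It measured 66.2, 33.4, 93.8 and 44.2 CPM in day 1 sorted cells at 21% O2 and 12.3, 70, 39.7 and 18 CPM at 7%, against 0.515 to 15.4 CPM in whole worms. The log2 difference was 3.08 ± 0.58 (adjusted p = 0.00119) at 21% and 2.91 ± 0.64 (adjusted p = 0.00465) at 7% on day 1, and 1.62 ± 0.70 (adjusted p = 0.0998) at 21% on day 7. It was 1.73 ± 1.13 and not called (adjusted p = 0.25) at 7% on day 7. The coding copies cyp-31A2 and cyp-31A3 ran the other way, and how reads were divided among the copies was not tested.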

How the results depend on the processing

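Of 114 calls on named members, 82 were kept in every alternative, and none of 2523 values reversed. Without the low-count filter the calls between neurons and whole worms went from 16 to 27 (day 1, 21% O2), from 15 to 28 (day 1, 7%) and from 13 to 20 (day 7, 21%), with more genes tested. With only the 2 groups compared in the fit, age calls at 21% O2 went from 17 to 10 in neurons, where 23 instead of 40 genes were tested, and from 15 to 7 in whole worms, where 37 instead of 50 were. For O2, DESeq2 called 3 (day 1 neurons), 2 (day 7 neurons) and 1 (day 1 whole worms) genes, and 1 for age by O2 in neurons. No filter gave 1 call for O2 in day 7 neurons and 1 for age by O2 in each sample type. The cause was not tested. Each whole-worm aliquot came from a dissociated sample that was also sorted, but neither labels nor methods say that equal numbers mark the same worms. The numbers were not taken to pair the samples. Correlations of same-numbered deviations between neurons and whole worms ran from −0.053 to 0.162. Over all comparisons of 2 groups these correlations ran from −0.117 to 0.368. Between day 1 neurons and whole worms at 21% O2, and between O2 levels in day 7 whole worms, every library correlated best with its own number. The replicate block moved O2 calls in day 1 whole worms from 0 to 1 (cyp-34A2, adjusted p = 0.0704) and no other count by over 1.5 times. It gave 18, 16, 14 and 22 calls between neurons and whole worms (day 1 at 21% and 7%, day 7 at 21% and 7%), of which 15, 13, 11 and 17 were also called without it. Among the calls followed here the block ended those on cyp-42A1 (neurons v whole worms, day 7, 21% O2, adjusted p = 0.2) and, for tissue by age, on cyp-33C3 at 21% and cyp-13A6, cyp-29A3 and cyp-34A10 at 7%.

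Leaving out 1 library gave 13 to 22, 11 to 23, 10 to 16 and 13 to 24 calls between neurons and whole worms (day 1 at 21% and 7%, day 7 at 21% and 7%), 13 to 19 and 19 to 23 for age in neurons, 10 to 15 and 11 to 20 for age in whole worms, and 11 to 19 and 17 to 20 for tissue by age. For O2 it gave 0 to 1 in day 1 whole worms and 0 elsewhere. The 23 came without replicate 1 of day 1 neurons at 7%. DESeq2's size factors moved the median of all genes by −0.14 in the day 1 comparison at 21% O2. The low depth of most members limits what could be called, since 16 of 76 passed the filter in none of the 12 comparisons of 2 groups.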

Other observations

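Other detoxification genes were read as lists beside the P450 genes. Of 65 UDP-glucuronosyltransferase genes, which attach sugars to lipophilic compounds, 36 were tested for age in neurons. At 21% O2, 14 rose and 1 fell, and at 7% 18 rose and 0 fell, beside 12.1% rising and 18% falling of all genes at 21% and 15.4% and 21% at 7%. The filter ran over day 1 and day 7 together, and genes that passed only through day 7 had little room to be called lower. These counts therefore do not weigh both directions alike. In whole worms, 49 were tested, 3 rose and 10 fell at 21% O2, and 6 rose and 2 fell at 7%, beside 7.92% and 10.7% of all genes at 21% and 7.49% and 8.36% at 7%. On day 1, 17 of 34 (21%) and 15 of 30 (7%) were lower in neurons than in whole worms, and 1 and 3 were higher, beside 22.8% and 19.5% of all genes lower and 30% and 26.8% higher. Here genes that passed only through whole worms had little room to be called higher. The epoxide hydrolase genes ceeh-1 and ceeh-2, whose enzymes act on P450 products, both rose with age in neurons at both O2 levels. The mean of ceeh-1 went from 1.697 to 29.09 CPM at 21% and from 6.803 to 37.71 CPM at 7%. In day 1 sorted cells ceeh-2 had no count at either O2 level, so it could only have risen. Its day 7 libraries measured 2.11, 0.237, 0.234 and 0 CPM at 21% and 14.1, 1.11, 13.2 and 0.801 CPM at 7%. Of the 14 P-glycoprotein genes, which encode efflux pumps, 3 of 13 tested rose with age in neurons at each O2 level and 1 fell. General neuron markers fell in the same sorted libraries (8 of 9 at each O2 level), and their part in the age changes of these lists was not tested.

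Of 13 listed regulators of P450 genes, 9 of 12 tested fell and 1 rose with age in neurons at each O2 level. The hypoxia factor hif-1 fell (log2 changes of −2.59 and −2.83 at 21% and 7% O2), as did its hydroxylase egl-9 (−3.29 and −3.64) and the aryl hydrocarbon receptor ahr-1 (−3.48 and −4.42). The nuclear receptor nhr-8, which acts in the xenobiotic response, was the gene that rose (5.29 ± 1.57 and 4.35 ± 1.5). In the same libraries 8 of 9 general neuron markers (median log2 changes of −3.07 and −3.35), all 8 O2-sensing markers (−4.31 and −4.90) and all 6 touch neuron markers fell, beside 18% and 21% of all genes, and their part in the regulators' changes was not tested. In whole worms 1 of the list fell at 21% O2 and 1 rose at 7%. These genes were named after their values were seen.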
